A study of Saccharomyces cerevisiae with 16 samples.

Results

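The genes described here serve autophagy, the peroxisome and the vacuole of Saccharomyces cerevisiae. They were chosen by their symbols, namely those made of ATG, PEX, APE, VMA, VPH, VTC, VAC, VAM, PEP, PRB, PRC, PMC, POX, POT or PXA and a number. Of the 3127 genes on the slide whose spots name a single gene, 62 fitted, and every one of them was measured on all slides. The ATG and APE symbols gave 22 autophagy genes, the PEX, POX, POT and PXA symbols 17 peroxisome genes, and the others 23 vacuole genes. No spot naming a single gene stood for PRB1, PRC1, VPH1 or VTC1, which are therefore not analysed here. Cultures of CDY59, a wild-type strain, received 200 mM hydroxyurea in the rich medium YPD and were taken after 1, 2, 4 or 6 h, against untreated CDY59 cells in YPD at an optical density of 0.5. Hydroxyurea blocks the enzyme that makes deoxyribonucleotides and so slows DNA replication. The 8 two-colour slides carried treated and untreated RNA together, with 2 slides per time, and each slide was read 2 times. Treated RNA was in channel 1 on one slide of a time, called its ch1 slide here, and in channel 2 on the other, its ch2 slide. No untreated culture of matched age is described, and the labels do not say if slides of 1 time came from separate cultures, so the p-values measure the spread between slides, part of which may be technical.

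Autophagy carries cytoplasm, organelles and some vacuolar enzymes into the vacuole, the acidic digestive compartment of yeast. A kinase complex starts a double membrane, a ubiquitin-like protein is attached to its lipids, and receptors tether the cargo to it. In growing cells the same machinery runs the cytoplasm-to-vacuole targeting (Cvt) pathway, which delivers a precursor aminopeptidase. The vacuole is acidified by the V-ATPase, a proton pump with a peripheral V1 sector that hydrolyses ATP and a membrane V0 sector that moves protons. Peroxisomes hold the whole of fatty acid beta-oxidation in yeast, and their PEX proteins import enzymes that are already folded.

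Every value below is a log2 ratio of treated over untreated RNA relative to the median single-gene spot of its reading, so 0 is the median and not the untreated level itself. The labels do not name the numerator of the deposited ratios, and the sign was set so that RNR2 and RNR4, textbook hydroxyurea-induced genes, came out positive. The direction is likely on that ground alone, and every sign here would turn with it. On the 1 h ch1 slide RNR2 and RNR4 were at -0.98 and 0.14, far from the 3.57 and 2.42 of the other 1 h slide, so results that need that slide are marked. Across the 62 genes, pairs of slides that shared an orientation but not a time had a median correlation of 0.61 (12 pairs). The 2 slides of a time correlated at -0.09 for 1 h, 0.02 for 2 h, 0.45 for 4 h and 0.43 for 6 h. These values are given without a test because genes are not replicates. Changes of single genes were tested with limma over all 3127 genes with a term for channel orientation, at a Benjamini-Hochberg adjusted p of 0.05, and errors after ± are standard errors of that model. In pooled cultures a lower share of cells that express a gene and less of its RNA in each cell cannot be told apart.

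The autophagy genes stood mostly above 0 and the V-ATPase genes all below it, while the peroxisome genes lay on both sides. In the mean over the 4 times, 4 autophagy genes rose (APE1, ATG8, ATG34 and ATG19), 1 peroxisome gene rose (PXA2) and 4 vacuole genes fell (VMA16, VMA2, VTC4 and VMA7). These 9 of 62 genes are 14.5%, against 18.8% of all genes tested, so the genes as a whole were not called more often than the background. By direction, 4 of 22 autophagy genes is 18.2%, against 6.97% of all genes tested that passed as higher, and 4 of 23 vacuole genes is 17.4%, against 11.8% that passed as lower. Whether or not they passed, 20 of 22 autophagy genes had a mean above 0, with a median of 0.19. Among peroxisome genes 10 of 17 were above 0, with a median of 0.04. Of the vacuole genes 5 of 23 were above 0, with a median of -0.15, and over all genes tested 1618 of 3127 were above 0, with a median of 0.01. With no centring the median gene was at 0.20, the median of the vacuole genes turned to 0.043, and 19 genes passed as higher and 3 as lower. Without the 1 h ch1 slide, 5 genes passed (APE1, ATG8, PXA2, VMA16 and VMA2). The count was 16 without the 2 h ch2 slide and 3 without the 6 h ch2 slide, and 28 (14 higher, 14 lower) on the 4 h and 6 h slides alone, where 1417 of all genes passed.

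**Figure D1:**
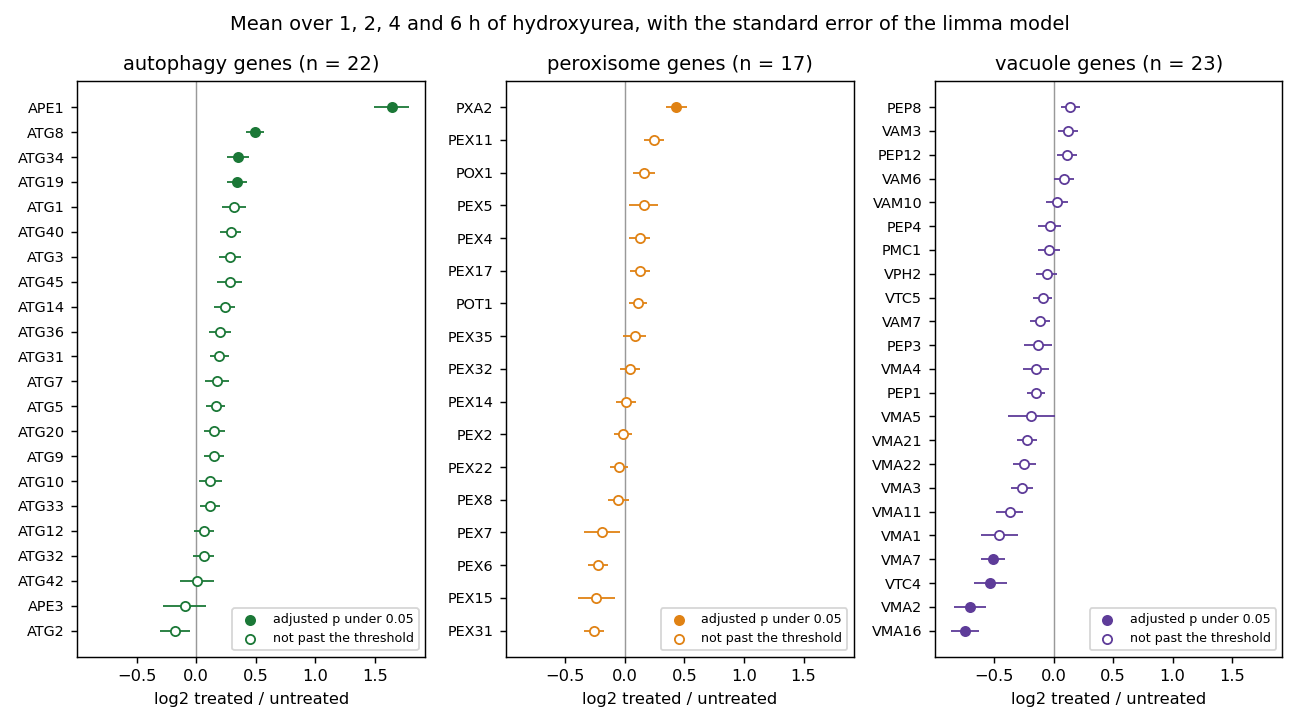
Mean log2 ratio of treated over untreated over the 4 times for each of the 62 genes, in 3 panels by group, with the standard error of the limma model as a bar; filled points passed at an adjusted p under 0.05. APE1 stands alone at 1.64, and the lowest points are VMA16 at -0.75 and VMA2 at -0.70.

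APE1 (YKL103C), the vacuolar aminopeptidase that is the main cargo of the Cvt pathway, had the largest ratio of all 62 genes. It stood at 0.35 and 2.32 on the 1 h slides, 0.91 and 3.75 at 2 h, 0.57 and 1.81 at 4 h and finally 1.24 and 2.20 at 6 h, where each pair gives the ch1 slide and then the ch2 slide. It was above 0 on 8 of 8 slides, and the ch2 slide was the higher at every time. Its mean was 1.64 ± 0.15 (adjusted p = 0.000371), a 3.12-fold ratio if the logarithm has base 2. The orientation itself changed its value, by -1.75 ± 0.30 for channel 1 minus channel 2 (adjusted p = 0.0214), so the size of the rise differed between 0.77 on the ch1 slides and 2.52 on the ch2 slides. Its call held under 21 of 21 alternative settings, within 0.77 to 2.52.

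The receptors that bring APE1 and its companion cargo to the membrane also rose. ATG19 (YOL082W), the Cvt receptor, stood at 0.41 and 0.07 on the 1 h slides, 1.17 and 0.40 at 2 h, 0.39 and 0.00 at 4 h and finally 0.19 and 0.12 at 6 h. It was above 0 on 7 of 8 slides and at 0 on the 4 h ch2 slide, and its highest value came from the 2 h ch1 slide. Its mean was 0.34 ± 0.09 (adjusted p = 0.0285). ATG34 (YOL083W), the neighbouring gene and paralogue of ATG19, codes for the receptor of alpha-mannosidase under starvation and stood at 0.30 and 0.22 on the 1 h slides, -0.01 and 0.44 at 2 h, 0.38 and 0.53 at 4 h and finally 0.10 and 0.86 at 6 h. It was above 0 on 7 of 8 slides, with its highest value at 6 h, and its mean was 0.35 ± 0.09 (adjusted p = 0.0334). Both calls depended on the setting and were lost in 12 of 21 alternatives each, with an adjusted p of up to 0.514 for ATG19 and 0.211 for ATG34. Each was lost when the 1 h ch1, 2 h ch1, 4 h ch1, 4 h ch2 or 6 h ch2 slide was left out, the ATG19 call also with the 1 h ch2 slide left out and the ATG34 call with the 2 h ch2 slide left out. The probes of these paralogues may share signal, which was not tested. AMS1 (YGL156W), the alpha-mannosidase that both receptors carry, is no ATG or APE symbol and was followed with the other vacuolar enzymes. It stood at 0.37 and 0.85 on the 1 h slides, 1.92 and 1.01 at 2 h, 1.06 and 0.33 at 4 h and finally 0.50 and 0.74 at 6 h, above 0 on 8 of 8 slides, and rose by 0.84 ± 0.13 (adjusted p = 0.00405).

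ATG8 (YBL078C) codes for the ubiquitin-like protein that is attached to the lipids of the growing membrane, and it rose. It stood at 0.71 and 0.39 on the 1 h slides, 1.07 and 0.46 at 2 h, 0.30 and -0.08 at 4 h and finally 0.73 and 0.36 at 6 h. All slides but the 4 h ch2 slide were above 0, and the mean was 0.49 ± 0.08 (adjusted p = 0.00424), a 1.41-fold ratio if the base is 2. The call was lost in 1 of 21 alternatives, namely on the ch2 slides alone (adjusted p = 0.277). The enzymes that attach ATG8 and its partner did not pass. ATG7, the activating enzyme of both conjugation systems, had a mean of 0.18 ± 0.10 (adjusted p = 0.244), and ATG3, the conjugating enzyme of ATG8, had 0.28 ± 0.09 (adjusted p = 0.073), above 0 on 8 of 8 slides, between 0.08 and 0.70. ATG10, the conjugating enzyme of ATG12, had 0.12 ± 0.10, ATG12 itself 0.07 ± 0.08, and its target ATG5 0.16 ± 0.08, with adjusted p from 0.201 to 0.575. All 6 conjugation genes had a mean above 0, of which ATG8 passed.

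The genes that start and extend the membrane had 0 of 5 past the threshold by limma, against 18.8% of all genes tested. ATG1 (YGL180W), the kinase of the initiation complex, stood at 0.19 and 0.35 on the 1 h slides, 0.90 and 0.11 at 2 h, 0.43 and -0.08 at 4 h and finally 0.26 and 0.39 at 6 h. It was above 0 on 7 of 8 slides, with a mean of 0.32 ± 0.10 (adjusted p = 0.0713) and an unadjusted p of 0.0157. ATG31, a scaffold subunit of that complex, had a mean of 0.20 ± 0.08 (adjusted p = 0.141), and ATG14, the subunit that directs the phosphatidylinositol 3-kinase to autophagy, had 0.24 ± 0.09 (adjusted p = 0.0984). ATG9, the membrane protein of the vesicles that seed the membrane, had 0.15 ± 0.09 (adjusted p = 0.256), and ATG2, its lipid transfer partner, had -0.18 ± 0.12 (adjusted p = 0.339), the lowest autophagy gene. Of these 5 genes, ATG1, ATG31 and ATG14 were at an unadjusted p under 0.05, against 1037 of 3127 genes tested.

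The receptors for whole organelles also lay above 0 without passing. ATG40, the receptor for endoplasmic reticulum, stood at 0.65 and 0.19 on the 1 h slides, 0.14 and -0.50 at 2 h, 0.44 and 0.27 at 4 h and finally 0.49 and 0.64 at 6 h. Its mean was 0.29 ± 0.09 (adjusted p = 0.0623), and the 2 h ch2 slide was the one below 0. ATG36, the receptor for peroxisomes, had a mean of 0.20 ± 0.09 (adjusted p = 0.162) and ATG32, the receptor for mitochondria, 0.06 ± 0.08 (adjusted p = 0.614). ATG33, a mitochondrial outer membrane protein needed for mitophagy, had 0.12 ± 0.09, the sorting nexin gene ATG20 0.15 ± 0.09 and ATG45 0.28 ± 0.10, with adjusted p from 0.106 to 0.361. The other vacuolar peptidases of the group did not pass. ATG42, a serine carboxypeptidase, had a mean of 0.01 ± 0.14 (adjusted p = 0.97), and APE3, the vacuolar aminopeptidase Y, had -0.10 ± 0.18 (adjusted p = 0.719), with slides between -0.89 and 0.71. Without APE1 the median of the autophagy genes was 0.18, and 19 of 21 were above 0.

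The autophagy genes lay mostly above 0 in both orientations. Their slide medians were above 0 on 8 of 8 slides, between 0.09 and 0.43. The number of them above 0 was lowest at 14 of 22, on both 2 h slides, and highest at 21 of 22, on the 4 h ch1 slide. The ch1 and ch2 means lay on the same side of 0 for 18 of 22 autophagy genes, 7 of 17 peroxisome genes and 9 of 23 vacuole genes, against 49.4% of all genes. Genes above 0 on all 8 slides were APE1 and ATG3 (2 of 62, against 3.81% of all genes), and 2 of 62 were below 0 on all 8 (VMA16 and VMA7, against 4.57%).

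**Figure D2:**
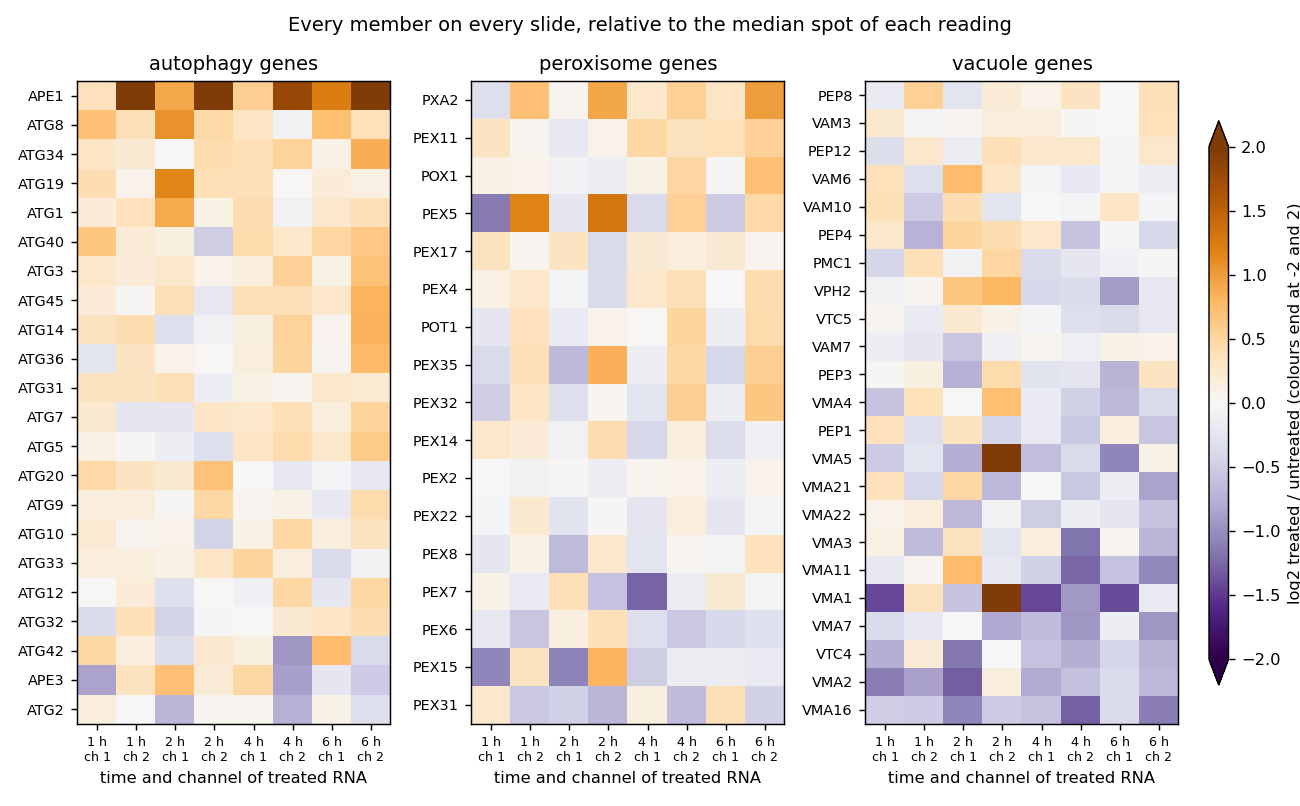
Log2 ratio of treated over untreated on each of the 8 slides for every gene, with rows ordered by the mean within each group and columns by time and by the channel (ch) that held the treated RNA. The APE1 row is above 0 in all columns and higher in each ch2 column than in any ch1 column, and the VMA16, VMA2, VTC4 and VMA7 rows are below 0 in every column of 4 h and 6 h.

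Of the 11 V-ATPase subunit and assembly genes 3 fell (27.3%, against 11.8% of all genes tested). All 11 had a mean below 0, with a median of -0.26, against -0.04 for the 12 other vacuole genes and 0.01 for all genes tested. That all 11 lay below the median gene on values as deposited adds nothing, since centring shifts all genes of a reading alike. On the ch1 slides alone 9 of 11 lay below the median gene, and on the ch2 slides alone 7 of 11.

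The V0 sector held the lowest mean. VMA16 (YHR026W), a proteolipid subunit of the proton channel, stood at -0.49 and -0.52 on the 1 h slides, -1.06 and -0.53 at 2 h, -0.59 and -1.29 at 4 h and finally -0.37 and -1.12 at 6 h. It was below 0 on 8 of 8 slides in both orientations, with a mean of -0.75 ± 0.12 (adjusted p = 0.00462), which is 1.68-fold lower if the base is 2, and the call held under 21 of 21 alternatives (-0.87 to -0.56). The other proteolipid subunits did not pass. VMA11 stood at -0.19 and 0.06 on the 1 h slides, 0.77 and -0.22 at 2 h, -0.47 and -1.26 at 4 h and finally -0.60 and -1.05 at 6 h. Its early slides lay on both sides of 0 and all its late slides below it, with a mean of -0.37 ± 0.11 (adjusted p = 0.0546). VMA3 had a mean of -0.26 ± 0.09 (adjusted p = 0.0794) made of 0.17 on the ch1 slides and -0.69 on the ch2 slides, and its orientation effect passed (adjusted p = 0.0257). VMA3 and VMA11 code for similar proteins, and shared probe signal was not tested.

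In the V1 sector 2 of 5 genes fell, against the same 11.8% of all genes. VMA2 (YBR127C), the regulatory nucleotide-binding subunit, stood at -1.13 and -0.87 on the 1 h slides, -1.31 and 0.15 at 2 h, -0.80 and -0.62 at 4 h and finally -0.37 and -0.68 at 6 h. It was below 0 on 7 of 8 slides, the exception being the 2 h ch2 slide, and its mean was -0.70 ± 0.14 (adjusted p = 0.011). The call was lost in 2 of 21 alternatives, on the ch2 slides alone and with the 6 h ch2 slide left out (adjusted p up to 0.167). VMA7 (YGR020C), a subunit of the central stalk, stood at -0.37 and -0.21 on the 1 h slides, -0.01 and -0.81 at 2 h, -0.65 and -0.95 at 4 h and finally -0.12 and -0.95 at 6 h. It was below 0 on 8 of 8 slides, with a mean of -0.51 ± 0.10 (adjusted p = 0.0132) that was lost in 6 of 21 alternatives (adjusted p up to 0.144), among them values as deposited and leaving out the 1 h ch1 or the 6 h ch2 slide.

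VMA1, the catalytic subunit, stood at -1.44 and 0.34 on the 1 h slides, -0.58 and 1.99 at 2 h, -1.44 and -0.93 at 4 h and finally -1.41 and -0.18 at 6 h. The ch1 slides were below 0 at all 4 times, while the ch2 slides were above 0 at 1 h and 2 h. Its mean of -0.45 ± 0.15 (adjusted p = 0.0776) did not pass, and its orientation effect of -1.52 ± 0.31 for channel 1 minus channel 2 did (adjusted p = 0.0249). VMA5, another stalk subunit, had -0.19 ± 0.20 (adjusted p = 0.515), with a range of -1.06 to 2.05, whose top is the 2 h ch2 slide. VMA4, a peripheral stalk subunit with 2 spots, had -0.15 ± 0.11 (adjusted p = 0.374), and its spots averaged -0.23 and -0.06. These spots differed most on the 2 h ch2 slide, at -0.21 and 1.66. The assembly factors VMA21, VMA22 and VPH2, which build the V0 sector in the endoplasmic reticulum, had -0.22 ± 0.08, -0.25 ± 0.10 and -0.06 ± 0.09, with adjusted p of 0.108, 0.123 and 0.664.

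**Figure D3:**
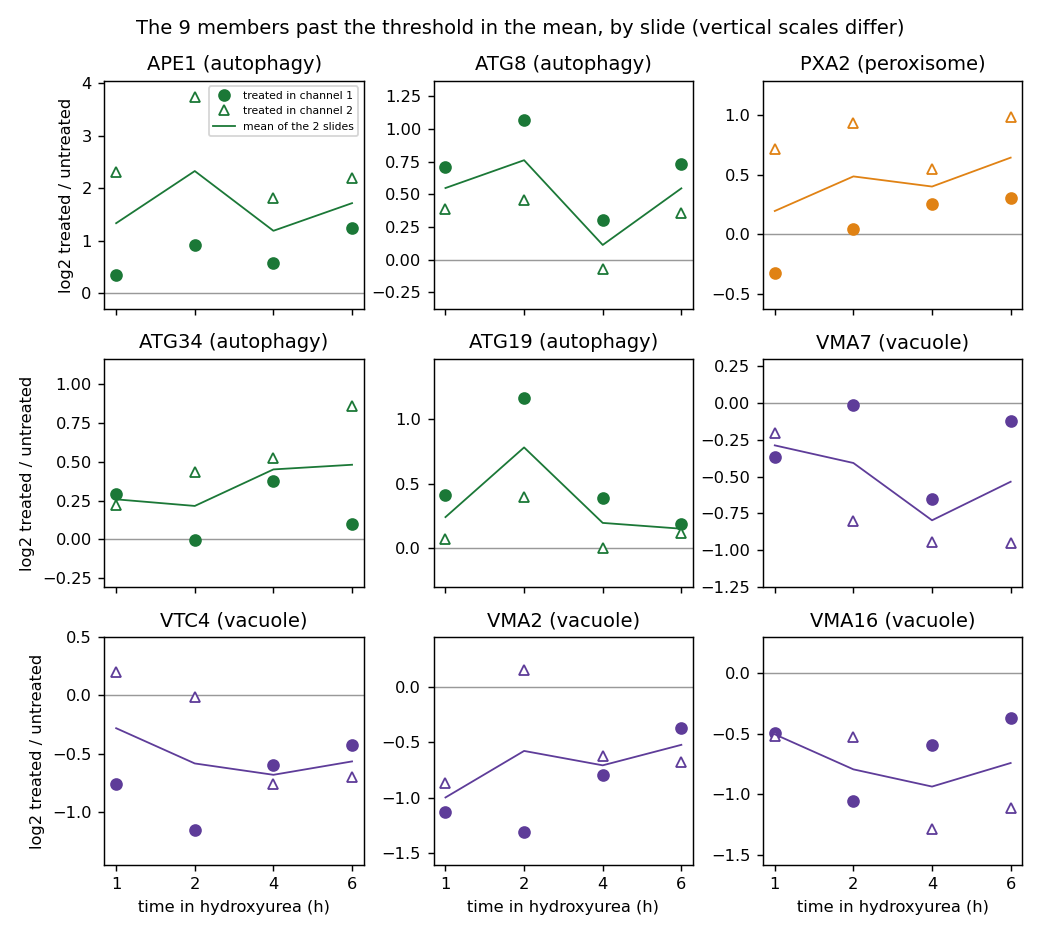
Log2 ratio of treated over untreated on each slide for the 9 genes that passed in the mean, by time in hydroxyurea, with filled circles for ch1 slides, open triangles for ch2 slides and a line through the mean of the 2 slides; vertical scales differ between panels. The triangles of APE1 and PXA2 lie above the circles at every time, and VMA16 and VMA7 have all points below 0.

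Among the 12 vacuole genes outside the V-ATPase 1 passed, VTC4 as lower (8.33%, against 11.8% of all genes tested). VTC4 (YJL012C), the polymerase that makes polyphosphate, stood at -0.77 and 0.20 on the 1 h slides, -1.16 and -0.02 at 2 h, -0.60 and -0.77 at 4 h and finally -0.43 and -0.71 at 6 h. It was below 0 on 7 of 8 slides, and the 1 h ch2 slide was above 0. Its mean of -0.53 ± 0.14 (adjusted p = 0.0303) was lost in 8 of 21 alternatives (adjusted p up to 0.352), among them leaving out the 1 h ch1, 2 h ch1, 4 h ch2 or 6 h ch2 slide. VTC5, a further subunit of that complex, had -0.09 ± 0.08 (adjusted p = 0.428).

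PEP4 (YPL154C), proteinase A, which activates the other vacuolar hydrolases, stood at 0.26 and -0.73 on the 1 h slides, 0.50 and 0.41 at 2 h, 0.28 and -0.58 at 4 h and finally 0.03 and -0.42 at 6 h. The slides of opposite orientation had opposite signs at 1 h, 4 h and 6 h, and the mean was -0.03 ± 0.10 (adjusted p = 0.832). PMC1, the calcium pump of the vacuolar membrane, had a mean of -0.04 ± 0.09 (adjusted p = 0.776), between -0.43 and 0.49. The sorting receptor gene PEP1 had -0.15 ± 0.08 (adjusted p = 0.226), and PEP8, a subunit of the retromer coat that recycles that receptor, had 0.14 ± 0.08 (adjusted p = 0.245), the highest vacuole gene. The tethering subunits PEP3 and VAM6 had -0.13 ± 0.12 and 0.09 ± 0.08, and the SNARE genes PEP12, VAM3 and VAM7, which act in fusion with endosome and vacuole, had 0.11 ± 0.08, 0.12 ± 0.09 and -0.11 ± 0.09. Their adjusted p ran from 0.325 for VAM3 to 0.468 for VAM6. VAM10 lies wholly within VPS5 in the reference annotation, so its 0.03 ± 0.09 cannot be assigned to either gene.

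Peroxisome genes had 1 of 17 past the threshold in the mean, PXA2 as higher (5.88%, against 6.97% of all genes tested). PXA2 (YKL188C), a subunit of the transporter that brings long-chain fatty acids into the peroxisome, stood at -0.33 and 0.72 on the 1 h slides, 0.04 and 0.93 at 2 h, 0.25 and 0.55 at 4 h and finally 0.30 and 0.99 at 6 h. The ch2 slide was the higher at all 4 times, and 7 of 8 slides were above 0. Its mean was 0.43 ± 0.09 (adjusted p = 0.0136), made of 0.07 on the ch1 slides and 0.80 on the ch2 slides, and its orientation effect passed as well (adjusted p = 0.0341). The rise was lost in 5 of 21 alternatives, among them on the ch1 slides alone (adjusted p = 0.723) and without the 1 h ch2, the 4 h ch1 or the 6 h ch2 slide.

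The beta-oxidation enzymes POX1 and POT1, inside the organelle, lay above 0 and did not pass. POX1, the acyl-CoA oxidase of the first step, had a mean of 0.16 ± 0.09 (adjusted p = 0.244), and POT1, the thiolase of the last step, had 0.11 ± 0.08 (adjusted p = 0.33). The peroxins showed no common direction. PEX11, which drives peroxisome proliferation, stood at 0.32 and 0.04 on the 1 h slides, -0.20 and 0.08 at 2 h, 0.47 and 0.34 at 4 h and finally 0.36 and 0.54 at 6 h. It was above 0 on 7 of 8 slides and alike in the orientations (0.24 on the ch1 slides and 0.25 on the ch2 slides), with a mean of 0.24 ± 0.08 (adjusted p = 0.0819). PEX31, which limits peroxisome size, had -0.26 ± 0.09 (adjusted p = 0.0768), the lowest peroxisome gene, and its relative PEX32 had 0.04 ± 0.08 (adjusted p = 0.72). PEX35, a regulator of peroxisome abundance, had 0.09 ± 0.10 (adjusted p = 0.542).

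PEX5 (YDR244W), the import receptor for most matrix enzymes, stood at -1.14 and 1.20 on the 1 h slides, -0.22 and 1.31 at 2 h, -0.39 and 0.56 at 4 h and finally -0.53 and 0.47 at 6 h. All 4 ch1 slides were below 0 and all 4 ch2 slides above it. Its mean of 0.16 ± 0.12 (adjusted p = 0.387) therefore averages opposite signs, and its orientation effect was -1.45 ± 0.25 (adjusted p = 0.0214). PEX7, the other import receptor, had -0.19 ± 0.15 (adjusted p = 0.396), with a lowest value of -1.27 on the 4 h ch1 slide. Of the docking and import machinery, PEX14 and PEX17 had 0.01 ± 0.09 and 0.13 ± 0.08, the ubiquitin ligase gene PEX2 had -0.02 ± 0.08 and PEX8 had -0.05 ± 0.09, with adjusted p from 0.313 to 0.926. The 2 spots of PEX14 averaged -0.02 and 0.05, and those of PEX2 averaged 0.01 and -0.05. On single slides the spots disagreed, most on the 2 h ch2 slide, with -0.21 and 1.06 for PEX14 and -0.59 and 0.34 for PEX2. In the receptor recycling module, the ubiquitin-conjugating enzyme gene PEX4 had 0.13 ± 0.09 and its anchor PEX22 -0.05 ± 0.07. PEX6, an ATPase that pulls the receptor out of the membrane, and PEX15, its anchor, had -0.23 ± 0.09 and -0.24 ± 0.16, and the adjusted p of these 4 genes ran from 0.11 to 0.647.

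Channel orientation had an effect past the threshold in 10 of 62 genes, against 17.3% of all genes (7.23% with a higher ch1 value). They were 1 of 22 autophagy genes (APE1), 5 of 17 peroxisome genes (PEX5, PEX35, PXA2, PEX32 and PEX31) and 4 of 23 vacuole genes (VMA1, VMA3, VMA21 and PEP1). Whether the groups differ in this number was not tested. Of the 9 genes that passed in the mean, APE1 and PXA2 also had an orientation effect past the threshold. The medians of the peroxisome genes moved with it, at -0.05, -0.17, -0.12 and -0.12 on the ch1 slides of 1, 2, 4 and 6 h, and at 0.19, 0.07, 0.17 and 0.36 on the ch2 slides.

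**Figure D4:**
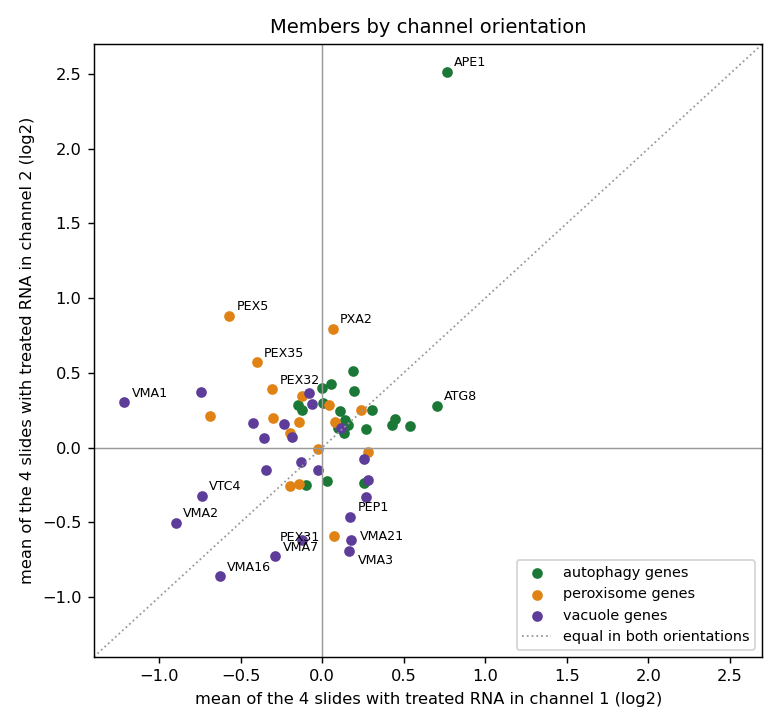
Mean log2 ratio of treated over untreated on the 4 ch1 slides (horizontal) and on the 4 ch2 slides (vertical), 1 point per gene, with the dotted line where both are equal; the genes with an orientation effect past the threshold and 5 of those that passed in the mean are named. VMA16, VMA7, VMA2 and VTC4 are below 0 on both axes, APE1 and ATG8 above 0 on both, and PEX5 and VMA1 have opposite signs.

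At single times few of the genes passed. At 1 h 0 of 62 passed by limma, against 0.799% of all genes. An unadjusted p under 0.05 was reached there by 4 of the 62, against 379 of 3127 genes. At 2 h 3 of 62 passed, each of them an autophagy gene that rose, against 4.19% of all genes (3.33% higher). They were APE1 at 2.33 ± 0.30 (adjusted p = 0.00783), ATG19 at 0.78 ± 0.17 (adjusted p = 0.0488) and ATG8 at 0.76 ± 0.15 (adjusted p = 0.0365). The 2 h call of APE1 was lost in 1 of 17 alternatives, that of ATG19 in 14 of 17 and that of ATG8 in 12 of 17, and both ATG calls were lost with any of the 8 slides left out. At 4 h 0 of 62 passed by limma, against 2.81% of all genes (2.21% lower). An unadjusted p under 0.05 was reached by 11, with 8 of these lower, against 530 of 3127 genes with 394 lower, which is close to the share among the 62. At 6 h 1 of 62 passed, APE1 at 1.72 ± 0.30 (adjusted p = 0.0163), against 6.01% of all genes (1.66% higher and 4.35% lower). The APE1 call at 6 h was lost in 3 of 18 alternatives, with no orientation term and without either 6 h slide.

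The V-ATPase genes had lower medians at the later times, although the difference between times passed for none of them. Over 1, 2, 4 and 6 h their medians were -0.27, 0.04, -0.51 and -0.53, and 10, 5, 11 and 11 of 11 were below 0 at these times. On all 4 slides of 4 h and 6 h, 9 of 11 were below 0, against 24.2% of all genes. Of the autophagy genes 12 of 22 were above 0 on all 4 of those slides, against 23.9% of all genes, and of the peroxisome genes 4 of 17. The autophagy medians over the same times were 0.20, 0.12, 0.25 and 0.33. For all genes tested the medians at these times ran from -0.01 to 0.01. A late median above 0 was not particular to the autophagy genes among the lists described below. At 4 h and 6 h other peroxisomal genes had 0.23 and 0.34, and 4 meiosis and sporulation genes 0.28 and 0.35. Other vacuolar genes had 0.14 and 0.14, and starvation and stationary phase genes 0.91 and 0.89. Autophagy regulators had -0.15 and -0.14, calcium signalling genes -0.18 and -0.085, and phosphate genes 0.17 and -0.045.

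The change with time itself passed for none of the genes. In the mean of 4 h and 6 h minus that of 1 h and 2 h, 0 of 62 passed by limma, against 0% of all genes. An unadjusted p under 0.05 was reached by 6, of which 4 were V-ATPase genes with a lower late value (VMA1, VMA4, VMA11 and VPH2). A larger share of all genes reached it, 549 of 3127, 399 of them with a lower late value. VMA1 had -1.06 ± 0.31 (adjusted p = 0.154), VMA11 had -0.95 ± 0.22 (adjusted p = 0.134) and VPH2 had -0.82 ± 0.17 (adjusted p = 0.129). The medians of this difference were 0.05 for autophagy, 0.09 for peroxisome and -0.27 for vacuole genes, against -0.03 for all genes. When all 4 times were compared in 1 F-test, 0 of all genes passed by limma (0%), and among the 62 genes the lowest p was that of VPH2 (adjusted p = 0.261). VPH2 stood at -0.08 and 0.05 on the 1 h slides, 0.65 and 0.79 at 2 h, -0.41 and -0.36 at 4 h and finally -0.91 and -0.20 at 6 h. Both its 2 h slides were above 0 and all its later slides below it. Such opposite signs between 2 h and 4 h were shown by 10 of 62 genes, against 12.8% of all genes, and between 2 h and 6 h by 13 of 62, against 11.7%.

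**Figure D5:**
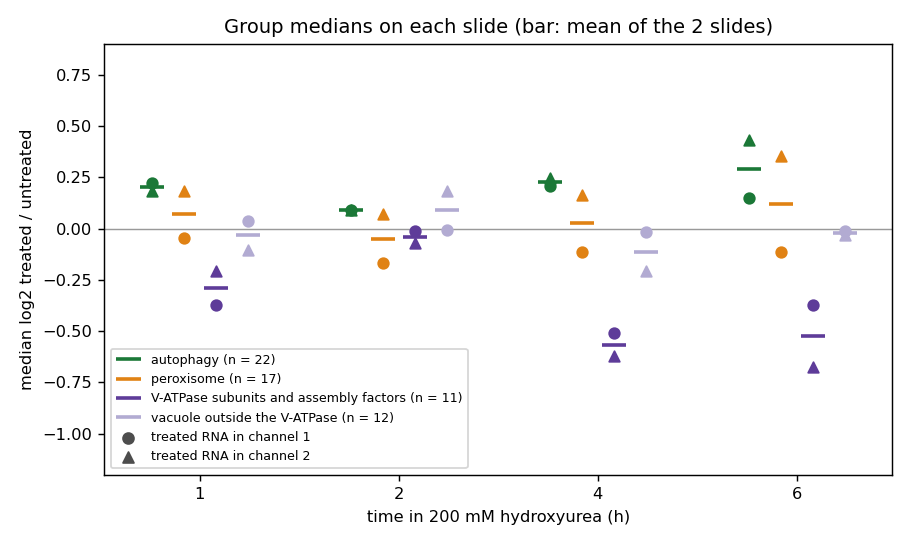
Median log2 ratio of treated over untreated on each slide by time in hydroxyurea for the autophagy, peroxisome, V-ATPase and other vacuole genes, with circles for ch1 slides, triangles for ch2 slides and a bar at the mean of the 2 slides. The autophagy medians are above 0 on all 8 slides and the V-ATPase medians below 0 on all 8, from -0.68 to -0.01.

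Genes of the same pathways with other names were followed in lists, whose counts stand against 6.97% of all genes that passed as higher and 11.8% that passed as lower. Of 19 measured regulators and partners of autophagy, 0 passed as higher and 2 as lower, with a median of -0.03. TOR1, a kinase that restrains autophagy, had -0.27 ± 0.08 (adjusted p = 0.0427) and VPS15, a subunit of the phosphatidylinositol 3-kinase, -0.42 ± 0.12 (adjusted p = 0.0446). Each call was lost in 12 of 21 alternatives, including values as deposited and leaving out the 1 h ch1 slide. TOR1 was in addition no longer below 0 on the ch1 slides alone, at 0.049. Of 22 other vacuolar enzymes, inhibitors and transporters, 4 rose and 2 fell, with a median of 0.12. The metal transporter gene SMF3 rose by 0.94 ± 0.12 (adjusted p = 0.0018), the zinc and cobalt transporter gene COT1 by 0.38 ± 0.10 and PBI2, an inhibitor of a vacuolar protease, by 0.30 ± 0.09, beside AMS1. The zinc transporter gene ZRC1 fell, at -0.52 ± 0.08 (adjusted p = 0.0043), and YPQ1, an amino acid transporter gene, at -0.51 ± 0.11 (adjusted p = 0.0152). The COT1, PBI2, YPQ1 and ZRC1 calls were lost in 11 of 21, 12 of 21, 6 of 21 and 2 of 21 alternatives, and ZRC1 was in addition above 0, at 0.059 on the ch1 slides alone. Leaving out the 1 h ch1 slide was among the losses of COT1, PBI2 and YPQ1.

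Peroxisomal enzymes and division factors outside the PEX, POX, POT and PXA symbols had 7 of 22 higher and 1 lower, against 6.97% and 11.8% of all genes, with a median of 0.16. The nicotinamidase gene PNC1 rose by 1.03 ± 0.11 (adjusted p = 0.000804), the membrane division factor gene FIS1 by 0.82 ± 0.10 (adjusted p = 0.00136), the glycerol phosphate dehydrogenase gene GPD1 by 0.51 ± 0.09 and the glutathione transferase gene GTO1 by 0.44 ± 0.09. FAA1, which activates long-chain fatty acids, fell, at -0.74 ± 0.13 (adjusted p = 0.00634). FOX2, the multifunctional enzyme of beta-oxidation between the POX1 and POT1 steps, also passed, at 0.38 ± 0.09 (adjusted p = 0.0254), with 7 of 8 slides above 0, and its call was lost in 7 of 21 alternatives. FOX2 was picked out after its value was seen. Some of these proteins are also found outside the peroxisome. PCD1 also passed as higher, at 0.35 ± 0.09 (adjusted p = 0.0391), and STR3 at 0.36 ± 0.09 (adjusted p = 0.029). GTO1, PCD1 and STR3 lost their calls in 8 of 21, 13 of 21 and 10 of 21 alternatives. Leaving out the 1 h ch1 slide was among the losses of each. GPD1 lost its call in 2 of 20, and PNC1, FIS1 and FAA1 in 1 of 21 each. Of 10 phosphate and polyphosphate genes 0 passed as higher and 0 as lower by limma, and the median was -0.05. An unadjusted p under 0.05 was reached by 3 of them, against 1037 of 3127 genes tested. Of 9 calcium signalling genes 1 rose, the calmodulin-dependent kinase gene CMK2 at 0.89 ± 0.16 (adjusted p = 0.0082), and the list had a median of -0.03. The CMK2 call was lost in 1 of 21 alternatives, on the ch1 slides alone.

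The last lists mark other states of a yeast culture. Of 7 measured genes of starvation and stationary phase, 4 rose (HSP12, HSP26, GRE1 and YGP1), against 6.97% of all genes. The others did not pass by limma, with SSA3 at -0.035 (adjusted p = 0.793), SPG4 at 0.14 (adjusted p = 0.294) and SIP18 at 0.19 (adjusted p = 0.147). The list had a median of 1.03 and slide medians between 0.32 and 1.09, above 0 on 8 of 8 slides. Medians above 0 on all 8 slides were also those of the autophagy genes and of the list of other vacuolar enzymes, inhibitors and transporters. The list of other peroxisomal enzymes and division factors had them on 7. What part the starvation genes have in the autophagy result was not tested. Of 4 meiosis and sporulation genes 0 passed by limma, with a median of 0.15 and slide medians between -0.19 and 0.61. An unadjusted p under 0.05 was reached by 1 of them, against 1037 of 3127 genes tested.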

How the data were processed

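Per the labels, total RNA was extracted with a column kit, labelled indirectly and hybridised to a yeast slide. The deposited table held a log ratio of the 2 channels, read here as log2, for 6912 spots in each of 16 readings. The logarithm's base is not stated and was taken as 2. The largest size of a value, 6.16, is too large for base 10, but the base may be natural, and folds would then be larger than printed. The deposited readings were not centred, with medians between -1.03 and 0.45, and signal over background is unknown. Scanner, software and build are not given in the sources used here, and the number of slides limits the precision.

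Ratios were turned to treated over untreated, and the sign was set by RNR2 and RNR4. Of the spots, 3344 named a single gene, 387 several and 3181 none. Of those with several, 18 named a gene of this kind and were left out. Each reading was centred on its median single-gene spot, spots of a gene were averaged (3 of the 62 genes had 2), and then the readings of a slide. limma 3.58.1 in R 4.3.3 fitted 4 times and the orientation on 8 slides (3 residual and 4.89 prior degrees of freedom). All tests were two-sided and were adjusted over 3127 genes. Alternatives changed the centring, the readings, the orientation term, the spots kept and the slides used. The rule for naming took genes that passed, the 2 highest and 2 lowest means of each group, and a list of genes picked for their roles, and the other genes are named to account for all 62. List genes were named where they passed, up to 4 each way per list, and FOX2, PCD1 and STR3 besides. The measured genes of starvation and stationary phase were all named. The genes, lists and tests were chosen with earlier results of these data known.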

Additional observations from a re-analysis of the deposited data

How the results depend on the processing

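The mean over the 4 times called 9 of the 62 genes. The count was 22 on values as deposited, 20 after quantile normalization, 15 on the readings titled fort, 16 with all 16 readings and slide as a random block, 4 with no orientation term, 28 on the 4 h and 6 h slides and, in settings chosen after seeing the data, 11 on the channel 1 slides and 5 on the channel 2 slides, and it ranged from 3 to 16 with 1 slide left out. At 1 h the count of 0 became 1 as deposited, 3 after quantile normalization and 2 with the block (0 to 2 with 1 slide left out). At 2 h the count of 3 became 1 on the readings titled faible, 7 with the block and 0 with no orientation term by limma, where 6 were at an unadjusted p under 0.05 (1 to 3). It was also 3 as deposited, after quantile normalization and with the 2 h ch2 slide left out, but each time with 1 higher and 2 lower, against 3 higher and 0 lower. At 4 h the count of 0 became 18 as deposited (17 higher, 1 lower), 5 after quantile normalization (1 higher, 4 lower), 3 on the fort readings (0 higher, 3 lower), 5 with the block (1 higher, 4 lower) and 7 on the late slides alone (1 higher, 6 lower), and 0 to 6 with 1 slide left out. At 6 h the count of 1 became 6, 6, 2, 6 and 18 under those same settings in that order, and 0 by limma with no orientation term, where 9 were at an unadjusted p under 0.05 (0 to 5). Late minus early went past 0 with quantile normalization (2) and with the block (4), and ranged from 0 to 2 with 1 slide left out. On the channel 1 slides alone PEX35 stood at -0.40 and PEX5 at -0.57, both past the threshold with the sign turned, TOR1 at 0.049 and ZRC1 at 0.059. The peroxisome median turned to -0.14 there, and the vacuole median to 0.043 as deposited. The autophagy median stayed above 0 under all 21 settings. The random block, no orientation term and averaging the slides of each time cannot move it from 0.19, so they add nothing. Values as deposited add nothing either, at 0.37 with the median gene at 0.20, since centring shifts all genes of a reading alike. As deposited, limma gave every gene the same variance. With a slide left out, the lone slide of its time is assumed to vary like the others, and the late slides alone left 1 residual degree of freedom. The cause of these changes was not tested. Treated and untreated RNA were paired within each slide, but slides could not be paired across times because the labels give them no replicate numbers.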
